A study of Mus musculus with 7 samples.

Results

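Lung CD11b+ conventional dendritic cells (cDC2s) of Irf3-deficient mice were compared with those of wild type mice after both had received house dust mite extract, the allergen source of the study. The comparison used the 5 arrays labelled as treated, 3 Irf3-deficient and 2 wild type, of 7 in the series, and covered 19938 genes measured by a probeset with 1 gene symbol. A gene with several such probesets was represented by the brightest of them, averaged over the 7 arrays. Every mouse was a female on a C57Bl/6 background, every array held RNA of cells pooled from 10 mice, and cells were isolated 12 hours after 100 µg of extract. The other 2 arrays came from wild type mice given PBS, the saline control, and their values stand beside the treated ones as a background. No untreated Irf3-deficient group was analysed here, so a difference between genotypes that exists before treatment and one that arises from the response to mite cannot be told apart. The sorted gate was CD11c+ MHC class II+ CD11b+ Ly6C- CD64-. The labels do not describe the Irf3 allele, and they do not say whether pools of a group came from separate experiments, so the p-values measure the spread between these pools only.

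IRF3 is a transcription factor that lies inactive in the cytoplasm until kinases downstream of Toll-like receptors or of cytosolic RNA and DNA sensors phosphorylate it. It then enters the nucleus and switches on the interferon beta gene and a set of other genes. Secreted type I interferon acts back on dendritic cells through its receptor, JAK kinases and a transcription factor complex that includes IRF9, and this second wave raises antiviral effectors, antigen presentation and costimulation. cDC2s carry lung antigen to lymph nodes and are known for priming T helper responses to allergens.

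Irf3 itself was lower in every Irf3-deficient array. On the log2 scale it read 9.59 and 9.57 in the treated wild type arrays and 8.26, 8.13 and 8.30 in the Irf3-deficient arrays, against 9.48 and 9.56 in untreated wild type. The groups did not overlap, and the Irf3-deficient mean was lower by 2.55-fold (95% CI 2.18 to 2.99), with adjusted p = 2.11e-06 in limma's moderated test. The labels do not say which exons the Irf3 probes cover, and the level that remained is the reading of that probeset and no measure of working transcript. Throughout, "with Irf3" stands for the treated wild type arrays, "without it" for the treated Irf3-deficient arrays, and positions relative to the untreated arrays are described without a test, since the fold of treated wild type over untreated shares its arrays with the comparison of genotypes. Bcl2l12, the gene beside Irf3, read 8.75 and 8.63 in treated wild type and 8.60, 8.35 and 8.56 without Irf3, a difference of -0.19 (adjusted p = 0.32).

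The gate genes matched the label in most respects. The MHC class II genes H2-Aa, H2-Ab1 and H2-Eb1 and their invariant chain Cd74 read between 14.02 and 14.28 in all 5 treated arrays, with differences of -0.001, -0.02, 0.06 and -0.02. Itgax, which encodes CD11c, read 12.64 and 12.67 in treated wild type and 12.86, 12.94 and 13.06 without Irf3. Itgam, which encodes CD11b, was higher, at 11.74, 11.81 and 11.64 without Irf3 against 10.92 and 11.10 with it (adjusted p = 0.000225), and lay between the treated and the untreated wild type, where it read 12.11 and 12.02. Of 16 cDC2 markers 5 were higher and 1, the dendritic cell factor Zbtb46 at -0.49 (adjusted p = 0.00539), was lower. Fcgr1 encodes CD64, which the gate excludes. It was high in the treated wild type arrays, at 10.61 and 10.99, and lower without Irf3, at 8.99, 9.14 and 9.27, where it overlapped the untreated level of 8.72 and 9.30 (adjusted p = 2.23e-05). The Ly6C genes had no probeset of their own.

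The genotypes differed at 3932 of 19938 genes (19.7%), 2138 higher (10.7%) and 1794 lower (9.00%) without Irf3. A gene is called higher or lower here where its adjusted p lies under a threshold of 0.05. The lower side held the larger differences: 381 genes (1.91%) were called and at least 2-fold lower, and 188 (0.943%) were called and at least 2-fold higher. Log2 differences of 2 to 3 were found in 58 lower and 6 higher genes, and larger ones in 15 lower and 2 higher genes. Groups that did not overlap were common, at 8715 genes (43.7%), 4619 above (23.2%) and 4096 below (20.5%). The median difference over all genes was 0.002, and the smallest difference called was 0.224. Calls were rare among dim genes: among the dimmest 25% of genes, up to a mean log2 level of 6.70, 0.883% were higher and 1.93% lower. Among the brightest 25% of genes 24% were higher and 18.2% lower. The counts of the gene lists below stand beside these shares, and a list of bright genes near the latter shares does not stand out. The number of calls was 2562 without the second treated wild type array, of which 1276 were higher.

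**Figure D1:**
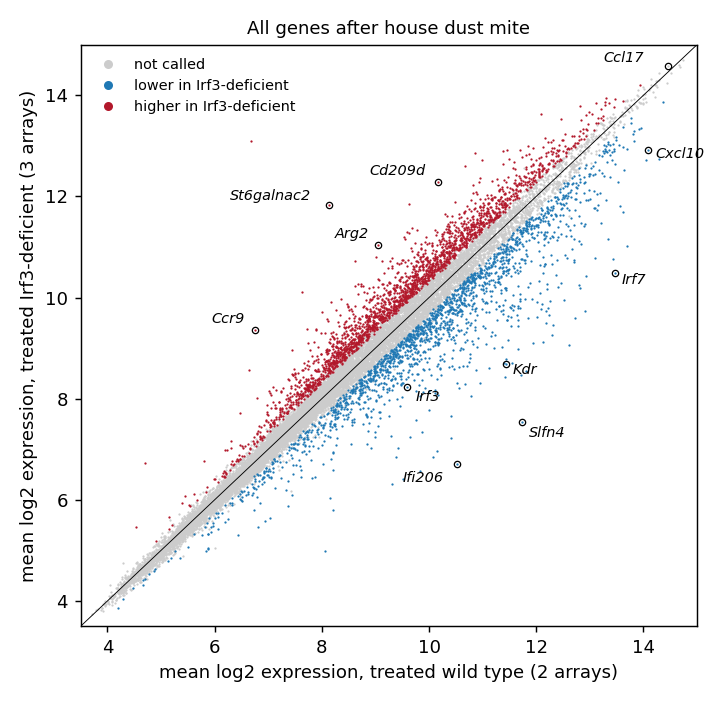
Each dot is 1 of 19938 genes, with its mean log2 expression in treated wild type (2 arrays) on the x axis and in treated Irf3-deficient cDC2s (3 arrays) on the y axis. Blue dots are the 1794 genes called lower and red dots the 2138 called higher, and more blue than red dots lie at least 1 log2 unit from the diagonal (381 against 188).

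Of the 20 largest lower differences, most were genes known as interferon-stimulated. Slfn4, a schlafen gene of myeloid cells, led them. It read 11.60 and 11.87 in treated wild type and 7.37, 7.55 and 7.69 without Irf3, lower by 18.4-fold (95% CI 15.2 to 22.2), and the Irf3-deficient arrays lay slightly above the untreated ones at 7.02 and 7.12. Its relative Slfn1 read 12.28 and 12.93 with Irf3 against 9.54, 8.97 and 8.65 without it, and there the Irf3-deficient arrays stood further above the untreated 8.02 and 7.501. Irf7, the factor that amplifies interferon production, read 13.37 and 13.56 with Irf3 against 10.70, 10.54 and 10.20 without it, lower by 7.92-fold (95% CI 6.46 to 9.7). The Irf3-deficient arrays kept to no single place between the wild type groups: Ifi27l2a, a mitochondrial interferon-induced gene, stood at 9.54, 9.58 and 9.28 without Irf3, below both the treated 12.14 and 12.51 and the untreated 10.63 and 10.13.

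Some of the largest lower differences belonged to genes usually described by other roles, which does not set them apart from interferon-stimulated genes. Whether interferon raises them here was not tested. Apod, a lipid-binding lipocalin, read 11.56 and 11.85 in treated wild type and 8.64, 8.49 and 8.26 without Irf3 (adjusted p = 2.44e-08). Kdr, the receptor for vascular endothelial growth factor, read 11.35 and 11.52 with Irf3 and 8.75, 8.81 and 8.52 without it, and the Irf3-deficient arrays overlapped the untreated 8.72 and 8.89. The nucleotidase gene Nt5c3 differed by -2.98, the PHD finger gene Phf11c by -2.996, and the membrane protein gene Ly6i by -2.85.

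The largest higher difference among named genes was at St6galnac2, which encodes a sialyltransferase. It read 12.03, 11.79 and 11.65 in the Irf3-deficient arrays against 8.18 and 8.10 in treated and 8.16 and 8.48 in untreated wild type, higher by 12.9-fold (95% CI 10.5 to 15.8). Both wild type groups thus lay below the Irf3-deficient arrays, as they did for Ccr9, Cygb and Mtmr9. Ccr9, a homing receptor of gut T cells and plasmacytoid cells, read 6.59 and 6.91 with Irf3 and 9.28, 9.25 and 9.54 without it, against 6.81 and 6.84 untreated. The globin gene Cygb read 8.60 and 8.63 with Irf3 and 10.79, 10.89 and 10.46 without it, against 8.39 and 8.51 untreated. The phosphatase-like Mtmr9 read 10.85 and 10.86 with Irf3 and 13.02, 12.88 and 12.66 without it, against 10.71 and 10.67 untreated. In these genes the Irf3-deficient arrays stood above all 4 wild type arrays.

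Others were high in the Irf3-deficient arrays and in untreated wild type, and low in treated wild type. The plexin domain gene Plxdc2 read 12.64, 12.57 and 12.59 without Irf3, 10.67 and 10.69 in treated and 12.09 and 12.10 in untreated wild type. Col14a1, a collagen gene, read 7.89 and 8.47 with Irf3 and 9.61, 10.05 and 10.10 without it, against 10.32 and 10.56 untreated. The growth factor gene Igf1 read 7.58 and 8.42 with Irf3 and 9.51, 9.64 and 9.99 without it, against 9.15 and 9.35 untreated. Fcrls, an Fc receptor-like gene of myeloid cells, and the leukocyte receptor gene Lilra5 also lay near their untreated levels without Irf3, with differences between the treated genotypes of 1.66 and 1.65. Cxcl13, a chemokine that attracts B cells, read 9.32 and 9.86 with Irf3 and 11.82, 11.23 and 10.84 without it, and without the first treated wild type array its difference of 1.71 became 1.44 with adjusted p = 0.0556.

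**Figure D2:**
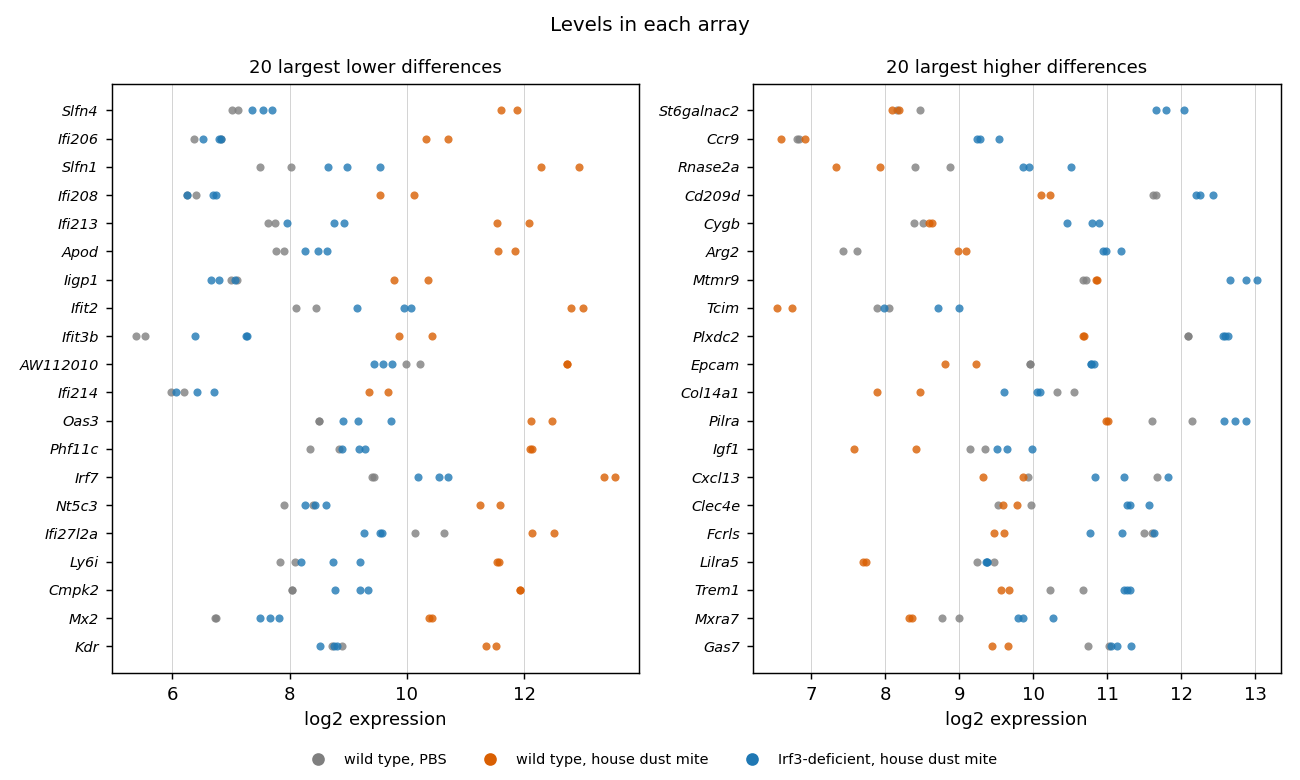
Log2 expression of the 20 genes with the largest lower (left) and higher (right) differences, 1 point per array: grey for untreated wild type (2), orange for treated wild type (2) and blue for treated Irf3-deficient cDC2s (3). On the left the orange points stand apart to the right, with Slfn4 at 11.60 and 11.87, while on the right St6galnac2, Ccr9, Cygb and Mtmr9 have blue points above both wild type groups.

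St6galnac2 has neighbours on chromosome 11 that shared its pattern. The next gene in order, BC018473, is a predicted transcript left out of the named genes, and it had the largest difference of all, reading 13.44, 13.21 and 12.65 without Irf3 against 6.55 and 6.80 in treated and 6.41 and 6.45 in untreated wild type. Cygb lay 3 genes before St6galnac2 and Mxra7 3 genes after it, at differences of 2.10 and 1.63, and the host transcript Snhg16 and the sialyltransferase gene St6galnac1 between them differed by 0.73 and 0.82. These genes were picked after their values were seen. Of the 50 measured genes nearest to St6galnac2, 6 were higher and 5 lower (22%), against 179 and 154 of 1566 genes of the chromosome (21.3%). Around Irf3 itself, on chromosome 7, 5 of the 50 nearest measured genes were higher and 6 lower (22%), against 16.1% of the 1738 genes of that chromosome. They included the small nucleolar RNA genes Snord35b, Snord35a and Snord33 at -1.91, -1.84 and -1.88, the dendritic cell factor Spib at -1.23 and the tetraspanin Cd37 at 1.22. Lower small RNAs were not particular to this neighbourhood: of 61 small noncoding RNA genes measured in all, 37 were lower (median -0.92).

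Among the sensors of microbial products that signal towards IRF3, the cytosolic ones were lower and the Toll-like receptors were mixed. Of 18 cytosolic sensors and their partners, 13 were lower and 0 higher, with a median of -1.03. Zbp1, a sensor of Z-form nucleic acid, read 12.74 and 12.86 in treated wild type and 10.40, 10.31 and 10.04 without Irf3 (adjusted p = 3.65e-08). The RNA helicase gene Ddx60 read 11.18 and 11.06 with Irf3 and 8.72, 8.73 and 8.39 without it (adjusted p = 1.18e-07). The RNA sensors Ddx58 (RIG-I), Ifih1 (MDA5) and Dhx58 (LGP2) differed by -1.72, -1.95 and -2.18. The DNA-sensing pair Cgas and Sting1 were lower by less, at -0.45 and -0.36. Mavs, the mitochondrial adaptor of the RNA sensors, at -0.18 (adjusted p = 0.477), Nod2, Nlrx1, Ddx41 and Aim2 did not pass.

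Of all genes 9.00% were lower and 10.7% higher, and of the brightest 25% of genes 18.2% and 24%. Of 27 Toll-like receptor and adaptor genes, 7 were lower and 7 higher (25.9% each, median 0.04). The lower ones included the endosomal receptors Tlr9, at 12.16 and 12.95 in treated wild type and 11.76, 11.38 and 11.23 without Irf3, Tlr7 at -0.70 (adjusted p = 0.0177) and Tlr3 at -0.65 (adjusted p = 0.0229), and the adaptor Myd88. The higher ones were Cd14, Ticam2, Tlr8, Irak3, Tirap, Tlr2 and Tlr6. Cd14, the co-receptor of TLR4 for lipopolysaccharide, read 11.04 and 11.73 with Irf3 and 12.40, 12.76 and 12.76 without it (adjusted p = 0.000335), and Ticam2, the adaptor that links TLR4 to IRF3, read 9.42 and 9.07 with Irf3 and 10.41, 10.28 and 10.21 without it (adjusted p = 6.66e-05). Tlr4 itself differed by 0.01 (adjusted p = 0.972). These counts moved with single arrays: without the second treated wild type array 3 were lower and 4 higher, without the third Irf3-deficient array 4 were lower, and Tlr7 then read -0.33 (adjusted p = 0.262) and -0.63 (adjusted p = 0.0613).

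The interferon genes themselves were dim. Ifnb1, the gene of interferon beta, read 7.69 and 7.95 in treated wild type and 6.53, 6.15 and 6.60 without Irf3, against 6.35 and 6.72 in untreated wild type, a difference of -1.39 ± 0.15 (SE, adjusted p = 3.62e-05). The Irf3-deficient and untreated arrays overlapped. Ifna2 read 8.08 and 8.27 with Irf3 against 6.80, 6.86 and 6.73 without it, and Ifna4 and Ifna5 differed by -0.91 and -0.44, although the interferon alpha genes are near-identical copies that may share probes. Of 23 ligand, receptor and JAK kinase genes, 5 were lower (21.7%) and 2 higher (8.7%), against 9.00% and 10.7% of all genes (median -0.11). The higher ones were receptor chains, Ifngr1 at 0.73 (adjusted p = 0.000338) and Ifnar1 at 0.34 (adjusted p = 0.0328), the latter lost without any single one of the Irf3-deficient arrays 2 and 3 or of the treated wild type arrays, with adjusted p between 0.0587 and 0.196, which leaves 1 higher gene. The kinase gene Tyk2 was lower, at -0.54 (adjusted p = 0.00392), while Jak1 and Jak2 read 0.02 and 0.08.

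Transcription factors and regulators of the interferon pathway followed. Of 8 interferon regulatory factors 5 were lower and 0 higher: Irf7, Irf3, Irf8 at -1.19 (adjusted p = 1.06e-05), Irf1 at -0.996 (adjusted p = 6.42e-05) and Irf9 at -0.82 (adjusted p = 0.000131). Irf4, the factor cDC2s depend on, read 11.72 and 11.54 in treated wild type and 11.81, 11.93 and 12.09 without Irf3 (adjusted p = 0.0609), and it passed in 4 of 15 alternative settings. Of 19 STAT, SOCS and related genes 9 were lower and 0 higher (median -0.34). Stat2, a subunit of the interferon-activated complex, read 12.21 and 12.17 with Irf3 and 10.47, 10.15 and 10.20 without it (adjusted p = 2.08e-07). Usp18, which removes ISG15 from proteins and dampens the receptor, read 13.32 and 13.34 with Irf3 and 11.38, 11.25 and 10.83 without it (adjusted p = 3.61e-07). Stat4 and Socs1 differed by -1.04 and -0.87, whereas Stat6, which serves interleukins 4 and 13, differed by -0.14 (adjusted p = 0.382).

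The antiviral effector families were lower throughout. All 15 measured OAS, IFIT and MX genes and their neighbours Rsad2 and Cmpk2 were lower, with a median of -2.64, as were all 10 guanylate-binding and immunity-related GTPases (median -1.62), all 16 schlafen and Ifi200 genes (median -1.90) and all 22 PARP, TRIM and ISG15-conjugation genes (median -1.37). The median levels of the 15 OAS, IFIT and MX genes were 11.95 and 12.06 in the treated wild type arrays, 9.73, 9.73 and 9.37 in the Irf3-deficient arrays, and 8.52 and 8.64 in untreated wild type. The Irf3-deficient arrays thus lay between the other groups for this family. Fewer cells expressing a gene and less RNA per cell cannot be told apart in pooled cells, here and in every result that follows.

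Within these families the sizes differed widely. Ifit2, which blocks translation of viral RNA, read 12.80 and 13.01 in treated wild type and 9.96, 10.08 and 9.15 without Irf3, lower by 9.04-fold (95% CI 6.47 to 12.6) and still above the untreated 8.45 and 8.11. Oas3, which makes the messenger that activates RNase L, read 12.12 and 12.47 with Irf3 and 9.73, 9.16 and 8.91 without it, lower by 8.15-fold (95% CI 6.1 to 10.9). Mx2 and Mx1, dynamin-like GTPases against viruses, differed by -2.74 and -1.77. At the small end were Oas1c at -0.44 (adjusted p = 0.0253), Ifi207 at -0.53 and Slfn2 at -0.62. Members of the Ifit, Oas, Ifi200, Slfn and Gbp families may share probes, so the value of a single member is uncertain.

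The GTPases and the protein modifiers followed the same direction. Iigp1, which attacks the vacuoles of intracellular pathogens, read 9.78 and 10.36 in treated wild type and 6.79, 7.08 and 6.66 without Irf3, against 6.99 and 7.10 untreated, with 1 Irf3-deficient array inside and 2 below the untreated range. Gbp5, a guanylate-binding protein gene, read 12.18 and 12.29 with Irf3 and 9.72, 9.63 and 9.60 without it, above the untreated 8.77 and 8.55. Isg20, an RNA exonuclease gene, differed by -2.51 (adjusted p = 2.07e-07), and the ISG15 enzymes Herc6, Ube2l6 and Uba7 by -1.998, -1.46 and -1.38. Of 10 membrane restriction genes only 4 passed: Ly6i, Bst2 (tetherin, which holds budding virus at the membrane) at 12.12 and 12.11 with Irf3 against 9.98, 9.80 and 9.80 without it, Ly6e at -0.61 and Ifitm3 at -0.57. Ifitm1 and Ifitm2 read -0.03 and 0.11.

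Promoters of these genes were searched for short motifs in windows of 300 bases, 250 before and 50 after each RefSeq start of assembly GRCm38.p6. The core of the interferon-stimulated response element, to which interferon regulatory factors and the STAT complex bind, was written as GAAA, any 2 bases and GAAA (TTTC, any 2 bases and TTTC on the other strand). It was found in 3.27% of the 19116 promoters of measured genes, in 6.91% of the 1721 promoters of genes called lower, in 15.9% of the 320 promoters of genes at least 2-fold lower, in 2.30% of the 2216 promoters of genes called higher, and in 5.78% of the 173 promoters of genes at least 2-fold higher. A match is a description of letters and not evidence of binding. Among named lower genes 77 had a promoter in the table and 12 of these held the core. The following 6 are the bases before the start, 5′ to 3′ along the gene, of named lower genes that hold the core there, and capitals mark the match. They were taken in order of the size of the difference. At most 2 genes whose symbols begin with the same letters were kept, so that Ifit genes counted together with Ifi206 and Ifi208. Not every chromosome was covered by this choice, so genes with larger differences may be missing.
Ifi206: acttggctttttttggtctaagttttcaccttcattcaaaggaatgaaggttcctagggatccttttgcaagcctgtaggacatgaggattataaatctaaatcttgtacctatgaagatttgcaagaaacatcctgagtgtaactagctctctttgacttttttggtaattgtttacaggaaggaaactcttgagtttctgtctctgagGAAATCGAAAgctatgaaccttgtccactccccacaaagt
Ifi208: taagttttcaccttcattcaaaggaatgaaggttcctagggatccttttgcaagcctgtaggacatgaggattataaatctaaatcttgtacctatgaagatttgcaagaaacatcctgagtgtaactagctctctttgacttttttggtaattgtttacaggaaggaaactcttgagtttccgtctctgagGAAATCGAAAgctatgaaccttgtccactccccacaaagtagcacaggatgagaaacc
Oas3: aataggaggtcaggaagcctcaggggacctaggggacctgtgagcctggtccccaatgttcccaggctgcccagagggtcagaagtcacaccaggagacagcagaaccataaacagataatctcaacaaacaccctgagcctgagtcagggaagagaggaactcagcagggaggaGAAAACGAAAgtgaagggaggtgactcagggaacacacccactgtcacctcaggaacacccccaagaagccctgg
Gbp5: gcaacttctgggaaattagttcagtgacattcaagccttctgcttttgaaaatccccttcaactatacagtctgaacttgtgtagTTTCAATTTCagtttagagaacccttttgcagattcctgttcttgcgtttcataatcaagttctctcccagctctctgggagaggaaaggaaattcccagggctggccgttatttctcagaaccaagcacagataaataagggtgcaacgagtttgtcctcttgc
Ddx60: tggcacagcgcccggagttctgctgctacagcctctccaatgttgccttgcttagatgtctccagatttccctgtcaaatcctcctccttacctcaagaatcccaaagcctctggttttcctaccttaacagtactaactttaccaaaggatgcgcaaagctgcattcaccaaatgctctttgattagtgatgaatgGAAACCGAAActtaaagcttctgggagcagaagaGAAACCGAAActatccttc
Bst2: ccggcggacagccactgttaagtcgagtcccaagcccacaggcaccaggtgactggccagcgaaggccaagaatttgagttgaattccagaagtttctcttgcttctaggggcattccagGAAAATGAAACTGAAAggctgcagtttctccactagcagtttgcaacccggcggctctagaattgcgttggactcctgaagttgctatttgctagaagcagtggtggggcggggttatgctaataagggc

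In the Ifi206 window (chr1:173491319-173491568, minus strand) the match began 40 bases before the start, and in that of Ifi208 (chr1:173673415-173673664, plus strand) 58 bases before it. The windows of Ifi206 and Ifi208, 2 genes of the Ifi200 cluster on chromosome 1, share the 10-base match and most letters around it. The Oas3 match (chr5:120777660-120777909, minus strand) began 75 bases before the start. In Gbp5 (chr3:142496684-142496933, plus strand) the match was on the other strand, 165 bases before the start. Ddx60 (chr8:61927837-61928086, plus strand) held 2 matches, at 53 and 19 bases, and Bst2 (chr8:71537473-71537722, minus strand) held 2 that overlap each other, at 130 and 124 bases. These 6 genes differed by -3.80, -3.27, -3.03, -2.58, -2.51 and -2.25.

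The other motifs were counted in the same sets. TTCNNNGAA, which reads the same on both strands, the site of STAT dimers, was in 7.68% of all promoters, 9.06% of those of genes at least 2-fold lower and 9.25% of those at least 2-fold higher. The NF-kB type motif, GGGA, any 2 bases and TTCC (or GGAA, any 2 bases and TCCC), was in 1.41% of all, 3.44% of the at least 2-fold lower and 1.73% of the at least 2-fold higher ones. TGACNNNGC (GCNNNGTCA on the other strand), the core of the antioxidant response element, was in 13.2% of all promoters, 15.3% of those of genes at least 2-fold lower and 15.6% of those at least 2-fold higher. TGANTCA, the AP-1 type motif, was in 6.88% of all promoters, 5.69% of those called lower, 5.96% of those called higher, 9.06% of those of genes at least 2-fold lower and 13.3% of the 173 promoters of genes at least 2-fold higher. The motifs may overlap: the STAT and the interferon core share GAA letters, and TGACTCA can run into the antioxidant core. The next 3 are the named higher genes with the largest differences that hold TGANTCA before the start, the growth factor Igf1, the lectin-like scavenger receptor Olr1 and the complement receptor C3ar1.
Igf1: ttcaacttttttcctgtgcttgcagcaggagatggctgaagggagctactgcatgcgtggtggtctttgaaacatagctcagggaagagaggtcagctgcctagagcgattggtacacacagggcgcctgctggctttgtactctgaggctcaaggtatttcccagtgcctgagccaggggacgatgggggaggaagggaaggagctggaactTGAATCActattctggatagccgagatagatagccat
Olr1: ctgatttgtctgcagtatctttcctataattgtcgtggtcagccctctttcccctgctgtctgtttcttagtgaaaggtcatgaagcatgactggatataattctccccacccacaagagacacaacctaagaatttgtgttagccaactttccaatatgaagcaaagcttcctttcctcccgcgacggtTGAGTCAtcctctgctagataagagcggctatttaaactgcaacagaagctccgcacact
C3ar1: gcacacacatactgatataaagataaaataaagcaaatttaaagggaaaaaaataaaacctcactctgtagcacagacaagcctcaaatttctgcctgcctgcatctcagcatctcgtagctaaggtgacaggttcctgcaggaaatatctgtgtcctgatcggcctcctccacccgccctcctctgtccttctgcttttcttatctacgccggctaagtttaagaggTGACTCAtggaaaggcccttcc

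The match in Igf1 (chr10:87860861-87861110, plus strand) began 37 bases before the start, in Olr1 (chr6:129507166-129507415, minus strand) 60 bases and in C3ar1 (chr6:122856158-122856407, minus strand) 22 bases before it. Olr1 read 9.23 and 9.39 in treated wild type and 10.69, 10.58 and 11.08 without Irf3, against 9.13 and 9.47 untreated. C3ar1 read 10.32 and 11.33 with Irf3 and 12.08, 12.31 and 12.27 without it, against 11.89 and 12.24 untreated. Olr1 and Igf1 thus stood above all 4 wild type arrays, while C3ar1 overlapped its untreated level.

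**Figure D3:**
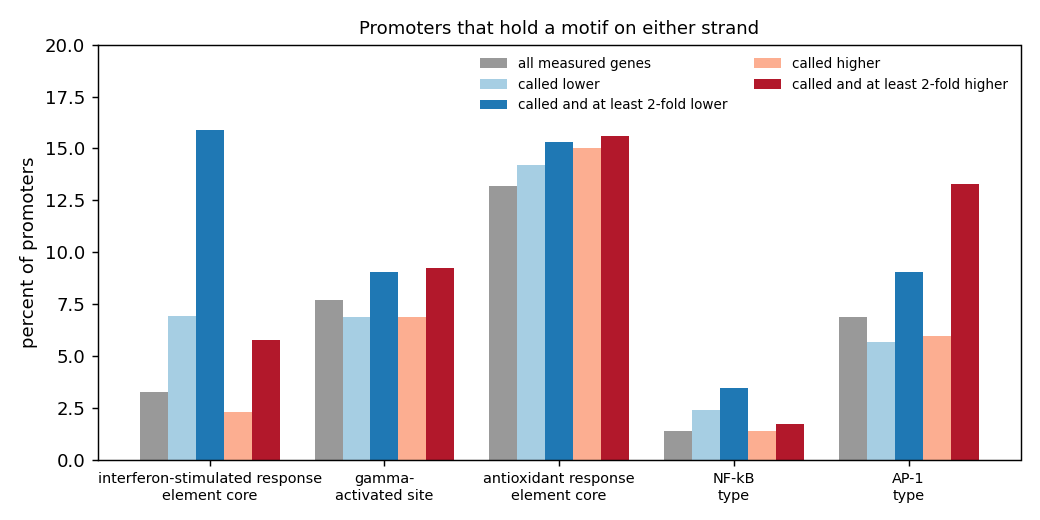
Percent of 300-base RefSeq promoters that hold each of 5 motifs on either strand (y axis), for all measured genes and for genes called lower or higher, with bars also for those at least 2-fold changed. The interferon-stimulated response element core reaches 15.9% in the at least 2-fold lower genes against 3.27% of all promoters, and the AP-1 type motif 13.3% in the at least 2-fold higher genes against 6.88%.

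Most measured genes of MHC class I and its peptide loading were lower, and few MHC class II genes passed in either direction. Of 19 class I and peptide loading genes, 13 were lower and 4 higher (median -0.70). The classical class I genes H2-K1, H2-D1 and H2-L had no probeset of their own, so the counts do not cover them. The nonclassical class I gene H2-T24 read 10.92 and 10.996 in treated wild type and 8.60, 8.41 and 7.90 without Irf3 (adjusted p = 3.61e-07). The peptide transporters Tap1 and Tap2 differed by -1.44 and -1.30, the loading factors Tapbpl and Tapbp by -1.72 and -0.997, and the class I transactivator Nlrc5 by -1.34. B2m, the shared light chain, differed by -0.13 (adjusted p = 0.261). The 4 higher genes were H2-M2, a nonclassical gene at 12.78, 12.65 and 12.59 without Irf3 against 11.53 and 11.63 with it, Mr1, which presents vitamin metabolites, at 0.89 (adjusted p = 0.000483), and the chaperones Canx and Calr at 0.45 and 0.40.

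Of 50 proteasome genes 18 were lower and 5 higher (median -0.20). The 3 inducible catalytic subunits of the immunoproteasome had the largest differences of the list. Psmb10 read 12.43 and 12.64 in treated wild type and 10.82, 10.83 and 10.89 without Irf3, against 11.004 and 11.08 untreated, and Psmb9 read 12.21 and 12.06 with Irf3 and 10.48, 10.50 and 10.51 without it, against 10.53 and 10.59 untreated. Psmb8 and the activator subunits Psme1 and Psme2 differed by -1.32, -1.26 and -0.64. The constitutive catalytic subunits that they replace gave -0.18 (Psmb5), -0.30 (Psmb6) and -0.91 (Psmb7), of which Psmb7 passed. Psme3, of the nuclear activator, and Psma2 were higher, at 0.67 and 0.70.

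Among 16 MHC class II genes 1 was lower, the regulator Rfx5 at -0.45 (adjusted p = 0.00886), and 1 higher, the peptide exchange gene H2-DMa at 0.49 (adjusted p = 0.00758), and both were lost without the first treated wild type array (adjusted p = 0.0684 and 0.0862), when 2 others of the list were higher. The transactivator Ciita differed by -0.02 (adjusted p = 0.948). Cathepsin and lysosome genes were divided, with 9 of 44 lower and 9 higher (20.5% each). These shares lay near the 18.2% and 24% among the brightest 25% of genes. Ctss, the cathepsin that trims the invariant chain, was lower at -0.66 (adjusted p = 0.000652), and Ctsd, Ctsa and Ctsl were higher at 0.64, 0.68 and 0.45. Npc2, a carrier of lysosomal cholesterol, read 12.85 and 12.64 with Irf3 and 11.90, 11.94 and 11.98 without it. Mitf, a factor for lysosome genes, has 2 probesets that disagree, at 0.925 and -0.058. Without the second treated wild type array 4 lysosomal genes were lower, and without the second Irf3-deficient array 5.

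Costimulatory ligands were lower more often than higher, at 12 against 3 of 26 genes (median -0.24). Tnfsf15 (TL1A), which costimulates T cells and innate lymphoid cells, read 10.57 and 10.28 in treated wild type and 8.89, 8.49 and 8.58 without Irf3 (adjusted p = 2.9e-06). Tnfsf4 (OX40 ligand), known for its part in T helper 2 priming, read 8.19 and 8.57 with Irf3 and 7.38, 7.40 and 7.58 without it, just above the untreated 7.37 and 7.18 (adjusted p = 0.00024). Cd40, Cd86, Cd70 and Pdcd1lg2 differed by -0.56, -0.46, -1.02 and -0.62, while Cd80 and Cd83 read -0.01 and 0.001 and did not pass. The inhibitory receptor gene Havcr2 (TIM-3) was higher, at 12.25, 12.01 and 12.04 without Irf3 against 11.31 and 11.30 with it. The 3 higher calls fell to 1 without the second treated wild type array.

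Among other members of the TNF superfamily 7 were lower and 9 higher of 32. Tnfsf10 (TRAIL), a death ligand, read 10.37 and 10.68 in treated wild type and 8.37, 8.60 and 7.94 without Irf3, overlapping the untreated 8.30 and 8.48, and the receptors Tnfrsf4 (OX40), Tnfrsf18 (GITR) and Fas differed by -1.47, -0.96 and -0.99. Tnfsf13b (BAFF), a survival factor of B cells, was higher, at 10.53, 10.60 and 10.64 against 9.19 and 9.29 in treated and 10.41 and 10.72 in untreated wild type. Tnf differed by -0.34 (adjusted p = 0.0758). The higher members numbered 5 without the second treated wild type array.

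Of 44 cytokine genes 6 were lower (13.6%) and 5 higher (11.4%), shares near the 9.00% and 10.7% of all genes. Il15, which sustains NK and memory CD8 T cells, read 11.15 and 11.65 in treated wild type and 8.71, 8.80 and 8.58 without Irf3, below the untreated 9.22 and 8.99, a difference of -2.71 ± 0.15 (SE, adjusted p = 1.12e-07). Its receptor chain Il15ra, which presents it to other cells, read 11.61 and 11.48 with Irf3 and 9.80, 9.86 and 9.89 without it (adjusted p = 2.31e-07). The subunits Il27 and Ebi3 of interleukin 27 differed by -1.03 and -0.66. Il12b, the shared chain of interleukins 12 and 23, was lower by less, at 13.38 and 13.47 with Irf3 against 12.96, 12.98 and 13.18 without it (adjusted p = 0.0117), and stayed far above the untreated 11.56 and 11.76. Il23a, the partner in interleukin 23, was higher at 0.74 (adjusted p = 0.00702), and Il12a, the partner in interleukin 12, differed by 0.09 (adjusted p = 0.679). Without the third Irf3-deficient array 3 of the 44 were higher. Il12b lost its call without the second Irf3-deficient array (adjusted p = 0.0529) or the second treated wild type array (adjusted p = 0.0901).

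The calls of Il6 and Il10 depended on single arrays, and that of Il6 also on the scaling. Il6 was lost with arrays centred on their median (adjusted p = 0.065) and with quantile normalization (adjusted p = 0.0503). It was also lost without the first or the third Irf3-deficient array (adjusted p = 0.0502 and 0.0915). Il10 was lost without the third Irf3-deficient array (adjusted p = 0.0524). Il6 read 11.22 and 12.03 in treated wild type and 10.94, 11.10 and 10.80 without Irf3 (adjusted p = 0.0297), and without the second treated wild type array the difference was -0.27 (adjusted p = 0.395). Il10 read 7.27 and 8.23 with Irf3 and 8.48, 8.53 and 8.75 without it (adjusted p = 0.016), and without the first treated wild type array the difference was 0.36 (adjusted p = 0.203). Il33 at -0.53 (adjusted p = 0.012) was lost without the first treated wild type array (adjusted p = 0.11) or the second Irf3-deficient array (adjusted p = 0.053). Il1a, by contrast, was higher in all Irf3-deficient arrays, at 12.47, 12.77 and 12.99 without Irf3 against 11.18 and 11.82 with it, while Il1b differed by 0.21 (adjusted p = 0.142). Crlf2, the receptor chain for the epithelial cytokine TSLP, differed by 0.01 (adjusted p = 0.969).

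Of 38 interleukin receptor genes 7 were lower and 11 higher, and 7 were higher without the second treated wild type array. Those lower included chains known for T and NK cell cytokines, Il12rb2 at -1.48, Il21r at -1.42 and Il2ra at -0.64. Those higher included Csf1r, the receptor for the macrophage growth factor, at 12.46, 12.56 and 12.60 against 11.44 and 11.76 in treated and 12.64 and 12.84 in untreated wild type, Csf2ra at 0.70, the interleukin 36 receptor chain Il1rl2 at 1.27 and the interleukin 18 receptor chain Il18r1 at 0.93.

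Of 33 measured chemokines, 6 were lower (18.2%) and 8 higher (24.2%). Among all genes the shares were 9.00% and 10.7%, and among the brightest 25% of genes 18.2% and 24%. The counts thus did not stand out from those of bright genes. Cxcl10, which attracts T helper 1 cells, read 13.88 and 14.28 in treated wild type and 13.18, 12.93 and 12.62 without Irf3, above the untreated 11.28 and 11.45, a difference of -1.17 ± 0.15 (SE, adjusted p = 0.000139). Its relative Cxcl9 differed by -1.24. Ccl5 read 14.25 and 14.32 with Irf3 and 12.58, 12.82 and 12.81 without it, below the untreated 13.003 and 13.04. Ccl4 read 11.42 and 11.71 with Irf3 and 10.09, 10.13 and 9.92 without it, again below the untreated 10.87 and 10.72. Both attract T cells. The higher ones were the monocyte attractants Ccl7, at 12.28, 12.36 and 12.47 without Irf3 against 10.64 and 11.27 with it, and Ccl2, at 1.15, the neutrophil attractants Cxcl2 and Cxcl3 at 0.96 and 0.93, the eosinophil attractant Ccl24 at 0.79, and Ccl6, Ccl9 and Cxcl13. Ccl17 and Ccl22 attract T helper 2 cells. Ccl17 read 14.45 and 14.47 with Irf3 and 14.58, 14.60 and 14.59 without it (adjusted p = 0.181), and Ccl22 read 14.09 and 14.15 with Irf3 and 14.09, 14.17 and 14.19 without it (adjusted p = 0.857). Neither passed.

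Chemokine and lipid mediator receptors were higher in 9 and lower in 2 of 41 cases (median 0.12). Ccr7, which guides dendritic cells to lymph nodes, read 14.18 and 14.17 in treated wild type and 14.05, 14.12 and 14.05 without Irf3 (adjusted p = 0.336), both above the untreated 13.58 and 13.63. Cxcr5, which guides cells to B cell follicles, was lower, at 8.47, 8.52 and 8.48 without Irf3 against 9.71 and 9.88 with it (adjusted p = 6.02e-06). The inflammatory receptors Ccr2, Cx3cr1, C5ar1 and Cxcr2 were higher, at 0.79, 1.08, 1.40 and 1.003.

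Pattern recognition lectins were higher more often than lower. Of 39 C-type lectin genes 22 were higher and 7 lower, with a median of 0.46. Cd209d, a relative of DC-SIGN, read 10.11 and 10.23 in treated wild type and 12.43, 12.19 and 12.25 without Irf3, above the untreated 11.62 and 11.66, higher by 4.35-fold (95% CI 3.74 to 5.05). Clec4e (Mincle), which binds fungal and mycobacterial glycolipids, read 9.59 and 9.78 with Irf3 and 11.30, 11.27 and 11.57 without it, also above the untreated 9.52 and 9.97, higher by 3.24-fold (95% CI 2.62 to 4.02). Its neighbours Clec4d and Clec4n (Dectin-2), the latter known to bind mite glycans, differed by 1.496 and 1.01, and Clec7a (Dectin-1) by 0.38 (adjusted p = 0.0151). The mannose receptor gene Mrc1 read 10.20 and 10.49 with Irf3 and 11.60, 11.67 and 11.55 without it, below the untreated 12.11 and 12.09. The lower ones were mostly receptors known from NK cells, Klrk1 at -1.19 and Klrd1 at -1.15, with the activation gene Cd69 at -1.11.

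Fc, scavenger and complement genes were higher in 17 and lower in 5 of 44 cases (median 0.24). The 3 chains of complement C1q were higher, with C1qb at 13.69, 13.59 and 13.61 against 11.61 and 12.58 in treated and 13.20 and 13.42 in untreated wild type, and C1qa and C1qc at 1.09 and 1.40. The scavenger receptors Stab1, Msr1 and Cd36 differed by 1.46, 1.40 and 1.16. The alternative pathway gene Cfb was lower, at 8.83, 8.69 and 8.82 without Irf3 against 11.38 and 11.48 with it, by 6.26-fold (95% CI 5.35 to 7.33). Fc receptors were split: Fcgr3 and Fcgr2b were higher at 1.03 and 0.65, and Fcgr1 and Fcgr4 lower at -1.67 and -0.59. Of the lower ones 3 passed without the second treated wild type array.

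In the TREM, CD300, MS4A and Siglec families 17 of 46 genes were higher and 12 lower (median 0.15). Trem1, which amplifies inflammatory signals, read 9.67 and 9.57 in treated wild type and 11.22, 11.27 and 11.30 without Irf3, above the untreated 10.23 and 10.68. Pilra, an inhibitory receptor gene, read 11.01 and 10.98 with Irf3 and 12.88, 12.72 and 12.58 without it, and its activating relatives Pilrb1 and Pilrb2 differed by 0.77 and 0.92. On the lower side stood Ms4a6b, at 10.01, 10.12 and 9.69 without Irf3 against 12.15 and 12.38 with it, Ms4a4b at -2.11, Ms4a4c at -1.76 and Siglec1 (CD169), an interferon-induced sialic acid receptor, at -1.42. Ms4a7 was higher, at 1.46 (adjusted p = 0.000408).

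Markers of macrophages and monocytes moved with these receptor families. Of 19 measured, 13 were higher and 3 lower (median 0.95). The mean over the list was 10.18 and 10.51 in the treated wild type arrays, 10.81 to 10.90 in the Irf3-deficient arrays and 11.10 to 11.28 in untreated wild type, and none lay among the dimmest 25% of genes. Fn1, Lyz2, Adgre1 and Cd163 differed by 1.52, 0.69, 1.17 and 0.98, and the 3 lower ones were Plac8, Apoe and Fcgr1. Plac8, an interferon-responsive monocyte gene, read 12.18 and 12.18 with Irf3 and 9.39, 9.76 and 9.34 without it. Apoe, a lipid carrier of macrophages, read 10.91 and 11.36 with Irf3 and 9.87, 10.24 and 10.29 without it, against 12.88 and 13.45 untreated. Several of these markers are themselves members of the receptor lists. Of 14 alveolar macrophage markers 4 were higher, among them Olr1 at 1.47 and Mrc1 at 1.26, and 1 was lower, Fabp5 at -0.97. Siglecf, Marco and Fabp4 of the same list did not pass, at 0.20 (adjusted p = 0.224), 0.24 (adjusted p = 0.205) and 0.18 (adjusted p = 0.649). The part of macrophage or monocyte admixture in the results on lectins, Fc, scavenger, TREM and chemokine genes was not tested.

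Markers of other cell types were also counted, against 19.7% of all genes called. Of 14 cDC1 markers 4 were lower, among them Irf8 at -1.19, Cd8a at -1.02 and Clec9a at -0.58. Another 3 were higher, among them Naaa at 0.54 and Cadm1 at 0.49, while Xcr1 at 0.34 did not pass (adjusted p = 0.419). Without the second Irf3-deficient array 2 were lower, and fewer markers passed when either treated wild type array was left out. Of 20 T and NK cell markers, 7 to 10 of which lay among the dimmest 25% of genes in each group, 6 were lower and 3 higher, and 1 was higher without the second treated wild type array. The T cell receptor chains Cd3d, Cd3e and Cd3g differed by 0.01, -0.02 and 0.11, and Gzmb, Tbx21 and Ncr1 by -1.13, -0.81 and -0.49. Cd2 and Cd4 were among the higher ones, at 0.79 and 0.58. Among 24 granulocyte markers 0 were lower and 2 higher (Mmp9 and Cxcr2), with S100a8 at -0.41 (adjusted p = 0.0507), and under other settings up to 2 were lower, or 1 was higher. Among 25 lung structural markers 3 were lower and 1 higher, with 5 lower without the second treated wild type array and 2 higher without the second Irf3-deficient array. Kdr was among the former, and Epcam, a surface marker of epithelium also found on some dendritic cells, was the latter, at 10.79, 10.78 and 10.83 without Irf3 against 9.23 and 8.80 with it, while Cdh1, Krt8 and Krt18 read 0.31, 0.002 and -0.04. Of 5 measured erythroid and platelet markers (median -0.07) the platelet genes Pf4 and Ppbp were higher, at 1.33 and 1.11, and the other 3, down to -0.45, did not pass. The part of these cells in the results was not tested.

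**Figure D4:**
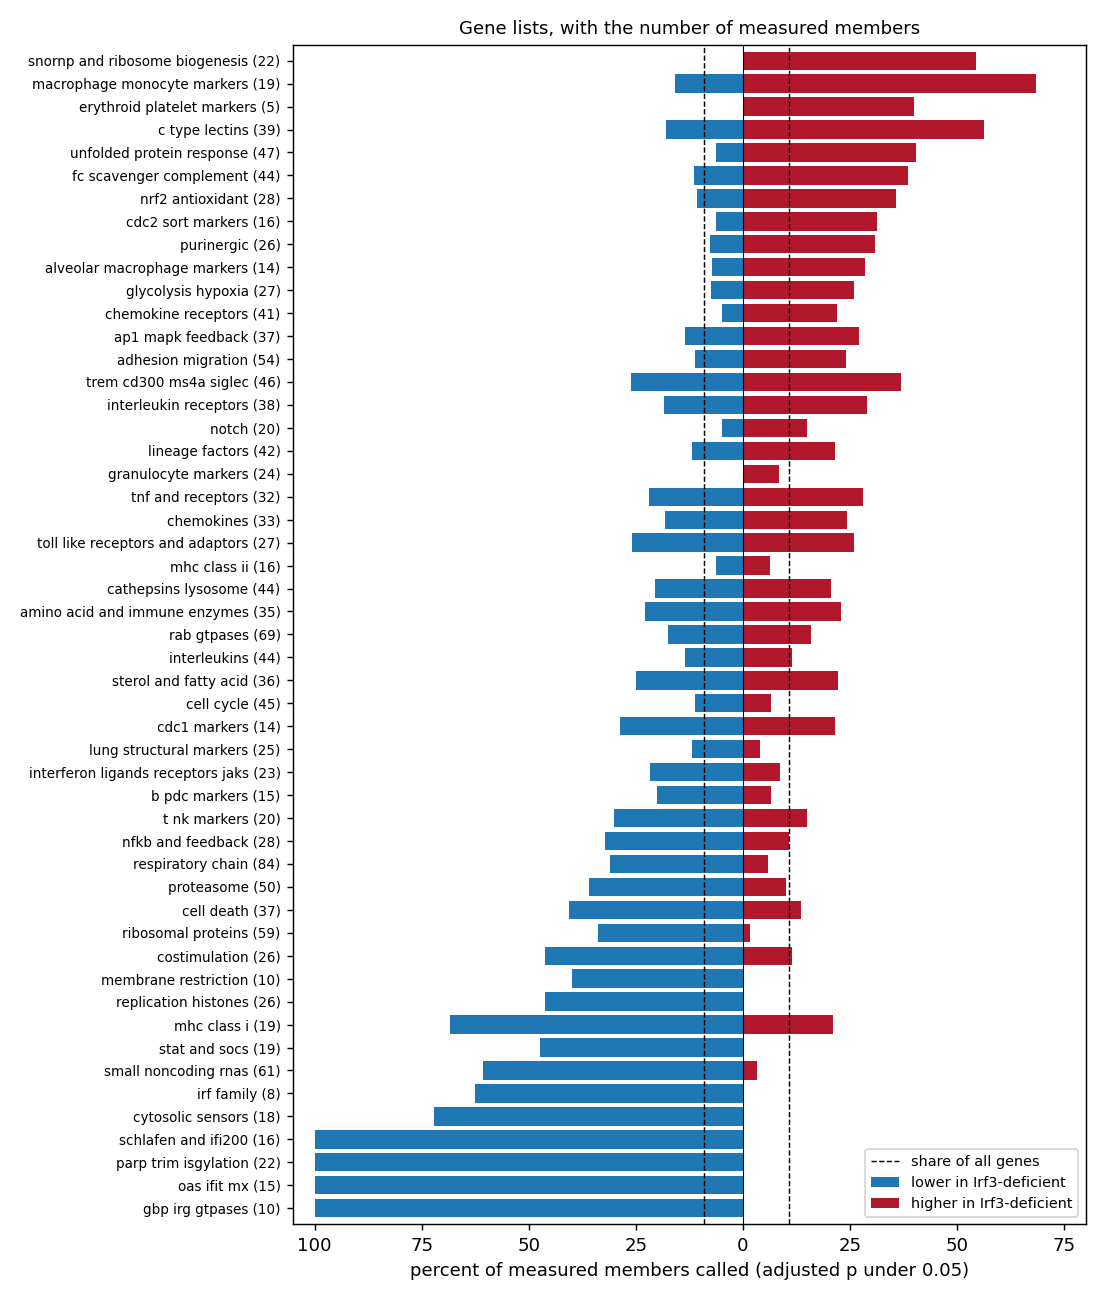
Percent of the measured members of each gene list called lower (blue, to the left) or higher (red, to the right) in treated Irf3-deficient against treated wild type cDC2s, with the number measured in parentheses. The dashed lines mark the share of all genes, 9.00% lower and 10.7% higher. The 4 antiviral effector lists at the bottom reach 100% lower, and the macrophage and monocyte markers near the top reach 68.4% higher.

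Lineage and signalling factors showed moderate differences. Of 42 lineage factors 5 were lower (11.9%) and 9 higher (21.4%), against 9.00% and 10.7% of all genes. Spib, known from plasmacytoid and B cells, read 10.49 and 10.41 in treated wild type and 9.55, 9.11 and 8.98 without Irf3, overlapping the untreated 9.48 and 9.31. Relb, of the noncanonical NF-kB pathway that matures dendritic cells, read 11.28 and 11.30 with Irf3 and 10.13, 10.32 and 10.49 without it (adjusted p = 7.83e-05). Zeb2 and Pparg, which shape macrophage and cDC2 states, were higher at 0.77 and 0.79, and the cDC2 factor Klf4 at 0.37. Of 28 NF-kB genes 9 were lower and 3 higher, among the lower Nfkb2, the partner of Relb, at -0.55, and Traf2 at -1.02. Rela, Rel and Nfkbia read -0.006, 0.06 and 0.07 and did not pass. Of 37 AP-1 and MAP kinase feedback genes 5 were lower, among them the phosphatase Dusp2 at -1.25, and 10 higher, among them Fosl2 at 0.72 and Dusp7 at 0.83, with 6 higher without the second treated wild type array. Fos differed by -0.01 (adjusted p = 0.961).

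Cell death genes were lower in 15 and higher in 5 of 37 cases (median -0.16). Many of the lower ones are known interferon targets. Xaf1, which opposes inhibitors of apoptosis, read 12.08 and 12.09 in treated wild type and 9.85, 9.88 and 9.59 without Irf3, and Daxx, a death domain-associated chaperone, read 11.67 and 12.03 with Irf3 and 9.62, 9.63 and 9.55 without it. Mlkl, the executioner of necroptosis, differed by -1.61, and the inflammatory caspases Casp4 and Casp1 and the pore protein gene Gsdmd by -1.05, -0.86 and -0.73. Bcl2, which keeps cells alive, was higher at 0.89 (adjusted p = 0.00162), while its relative Bcl2l1 was lower at -0.79 (adjusted p = 0.0012). The inflammasome sensor Nlrp3 was higher, at 11.25, 11.51 and 11.62 without Irf3 against 10.57 and 10.71 with it. Without the second treated wild type array 2 were higher, and without the second Irf3-deficient array 3.

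Of 35 enzymes of amino acid and lipid mediator metabolism 8 were lower and 8 higher, and 5 were higher without the second or the third Irf3-deficient array. Arg2, the mitochondrial arginase, read 9.09 and 8.99 in treated wild type and 10.94, 10.99 and 11.19 without Irf3, above the untreated 7.44 and 7.62, higher by 3.99-fold (95% CI 3.35 to 4.76). Nos2, which uses the same substrate to make nitric oxide, was lower, at 7.67 and 8.40 with Irf3 against 7.18, 7.12 and 7.22 without it, and the tryptophan enzymes Ido1, Kynu and Kmo differed by -0.82, -0.44 and -0.40. The histamine-forming enzyme gene Hdc was lower at -1.32 (adjusted p = 2.31e-05). The leukotriene and thromboxane enzymes Alox5, Lta4h, Ltc4s and Tbxas1 were higher, at 1.14, 0.47, 0.36 and 0.93.

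Of 36 sterol and fatty acid genes, 9 were lower (25%) and 8 higher (22.2%). These shares lay near the 18.2% and 24% among the brightest 25% of genes. The lower ones included Apoe and the mevalonate pathway genes Pmvk, Hmgcs1, Mvd and Mvk, the latter at -0.72, -0.59, -0.58 and -0.43, and the higher ones the fatty acid desaturase and elongase genes Fads1, Fads2, Scd1, Scd2 and Elovl6, at 0.995, 0.47, 0.45, 0.62 and 0.81. The cholesterol exporter Abca1 was higher at 1.10 and its relative Abcg1 lower at -0.61. Without the first treated wild type array 4 were lower, and without the second 5.

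In the stress pathway lists more members were higher than lower, and most did not pass. Of 28 NRF2 and antioxidant genes 10 were higher and 3 lower (median 0.12), with 5 lower without the second treated wild type array. Gclm, of glutathione synthesis, read 9.75 and 9.61 in treated wild type and 10.93, 10.67 and 11.15 without Irf3, and the cystine carrier Slc7a11 read 11.02 and 11.13 with Irf3 and 11.75, 11.92 and 12.42 without it. The untreated levels were 9.74 and 10.08 for Gclm and 10.24 and 10.38 for Slc7a11, below the Irf3-deficient arrays. Nfe2l2, the gene of NRF2, was higher at 0.58 (adjusted p = 0.00133) and Keap1, its inhibitor, lower at -1.08 (adjusted p = 1.06e-05). Of 47 genes of the unfolded protein response and the ATF4 programme 19 were higher and 3 lower (median 0.25), and 0 were lower without the second treated wild type array. Asns, which makes asparagine, read 8.84 and 8.61 with Irf3 and 10.10, 10.32 and 10.36 without it, against 7.94 and 8.37 untreated (adjusted p = 1.02e-05). The tRNA synthetases Iars, Lars and Nars, the serine pathway gene Shmt2 and the factor Xbp1 differed by 0.91, 0.60, 0.46, 0.80 and 0.66, whereas the chaperone Hspa5 and Atf4 itself differed by 0.01 (adjusted p = 0.961) and 0.07 (adjusted p = 0.756). Ddit3 (CHOP) was lower at -0.53. Glycolysis and hypoxia genes were higher in 7 of 27 cases, with Ldha and Slc2a3 at 0.55 and 0.50, and lower in 2. Without the third Irf3-deficient array 4 were higher and 4 lower, and without the second Irf3-deficient or the second treated wild type array 1 was lower.

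Subunits of the respiratory chain and of the ribosome were more often lower. Of 84 respiratory chain genes 26 were lower and 5 higher (median -0.16), with 17 lower and 3 higher without the second treated wild type array. Uqcrh, a subunit of complex III, read 11.98 and 11.61 in treated wild type and 10.58, 10.75 and 10.72 without Irf3, below the untreated 12.002 and 11.86. Of 59 ribosomal protein genes 20 were lower and 1 higher (median -0.21), with 3 higher without the first treated wild type array. Rps27l read 13.07 and 13.20 with Irf3 and 11.46, 11.83 and 11.89 without it, and Rps21 read 10.29 and 11.42 with Irf3 and 9.27, 9.51 and 9.33 without it, in both cases with the Irf3-deficient arrays below all 4 wild type arrays. The median level of the ribosomal list was 12.42 and 12.36 in treated wild type, 12.61 and 12.42 in untreated wild type, and 11.68, 12.12 and 12.01 without Irf3. Ribosomal protein genes have many processed copies in the genome, and probes may be shared with them.

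Small noncoding RNAs moved in the same arrays. This list was drawn up after the values were seen, as were the lists of histones and of ribosome assembly proteins. Of 61 small nucleolar, Cajal body, spliceosomal and Y RNA genes 37 were lower and 2 higher (median -0.92), and 28 were at least 2-fold lower, with 23 lower and 1 higher without the second treated wild type array. Their median level was 9.08 and 9.68 in treated wild type, 9.25 and 8.97 in untreated wild type, and 8.49, 8.66 and 8.66 without Irf3, so the Irf3-deficient arrays lay below all 4 wild type arrays. Scarna13 read 11.61 and 11.71 with Irf3 and 9.06, 9.08 and 10.18 without it. Snora16a read 9.57 and 11.76 with Irf3 and 8.03, 8.20 and 8.66 without it, a difference of -2.37 (adjusted p = 0.00548) that became -1.27 without the second treated wild type array (adjusted p = 0.0549). The medians were -0.74 over 31 Snord and -0.77 over 20 Snora genes (the box C/D and H/ACA classes). Of 26 replication histone genes, whose transcripts lack a poly(A) tail, 12 were lower and 0 higher (median -0.38), with H2ac4 at 7.02 and 7.73 with Irf3 against 6.34, 5.58 and 5.71 without it.

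Proteins that work with these RNAs were counted separately. Of 22 small nucleolar ribonucleoprotein and ribosome assembly genes 12 were higher and 0 lower (median 0.40). Dkc1, the pseudouridine synthase of H/ACA particles, read 8.85 and 8.67 in treated wild type and 10.40, 10.20 and 10.07 without Irf3, above the untreated 9.44 and 9.46. Polr1b, of RNA polymerase I, read 8.67 and 8.36 with Irf3 and 10.09, 9.51 and 9.66 without it (adjusted p = 0.00019), and Fbl, the methyltransferase of C/D particles, differed by 0.62 (adjusted p = 0.00292). Under some other settings 1 gene of the list was lower. Retention of short RNAs and RNA quality can differ between preparations, and no value for either came with the arrays, so their part in the results on small RNAs, histones, ribosomal and respiratory genes was not tested.

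**Figure D5:**
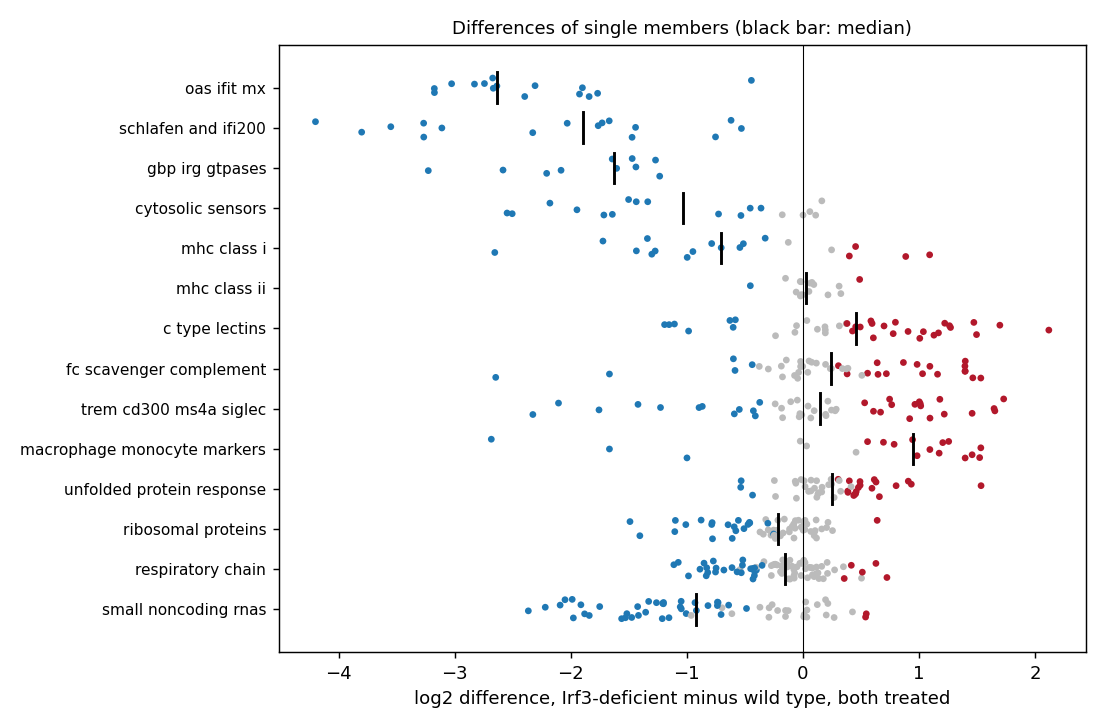
Log2 difference between treated Irf3-deficient and treated wild type cDC2s (x axis) for each measured member of 14 gene lists, with called genes in blue (lower) or red (higher), other genes in grey and the median of each list as a black bar. The antiviral lists lie wholly below 0, with a median of -2.64 for OAS, IFIT and MX genes, while C-type lectins and macrophage markers lie mostly above it and MHC class II genes lie near it.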

How the data were processed

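Affymetrix Mouse Gene 1.0 ST arrays measured the RNA of sorted cells. The deposited values are log2 expression of 35556 probesets, made by the authors with RMA (background correction, quantile normalization and summary of probes) in the oligo package under R 3.2.1, per the submitters' processing notes. RMA equalizes the arrays, so a shift shared by most genes would be removed. Array medians lay between 7.60 and 7.69. The number of arrays limits the precision, and the files give no read depth.

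Probesets were named through the platform annotation: 21789 had 1 gene symbol, 1621 had several and 12146 were not listed there. The first were reduced to 19938 genes, 999 of them with several probesets. Symbols were updated through Entrez numbers to RefSeq of assembly GRCm38.p6 for 19856 genes. No coordinates of genes are printed beside promoters, since the build behind the probesets is not given in the sources used here.

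Group means over all 7 arrays were fitted with limma 3.58.1 under R 4.3.3 (lmFit, eBayes with an intensity trend, 4 residual and 8.34 prior degrees of freedom), and p-values were adjusted by Benjamini-Hochberg over all 19938 genes. On simulated data with 200 changed genes, 87.9% of 1.5-fold and 100% of 2-fold changes were recovered at this design, with 7.52% and 7.12% of calls false. Each simulated gene varied independently of the others, with normal spread and no effect shared by an array. The real comparison called 3932 genes, so these rates describe the simulated data and not the calls reported here.

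The members and lists were chosen with earlier results of these data known. The 51 lists hold 1494 measured genes, of which 668 were called. Named genes were Irf3 and its neighbour, the 20 largest lower and the 20 largest higher called differences without overlap of the groups (predicted, small RNA and discordant multi-probeset genes left out), up to 2 called members per list and direction, sort markers and a panel of cytokine genes. Other genes in the text were chosen after their values were seen, as were the lists of small RNAs, histones and ribosome assembly. Alternatives changed the arrays fitted, the weights, the trend, the filter on dim genes, the probeset rule, the scaling, the pairing and each array in turn.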

Additional observations from a re-analysis of the deposited data

How the results depend on the processing

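The number of genes called ranged from 2562 to 3906 when 1 array was left out, and those higher from 1276 to 2084, both lowest without the second treated wild type array. Other settings gave between 3249 (array number as a block) and 4196 (array weights) calls, and the higher share of calls lay between 49.8% and 57.2%. Deviations of same-numbered arrays of the treated groups had correlations of -0.031 and -0.025. With 2 treated wild type arrays their deviations mirror each other, so these values are not separate and cannot decide whether arrays were paired. The fit reported did not pair arrays by number. The block kept 78.8% of the calls, with 1736 higher. Among the named genes, leaving out the first or the second treated wild type array ended 17 and 18 calls, the Irf3-deficient arrays between 3 and 7. The mean of a gene's probesets turned the sign of 2 called genes, neither among the named ones. Named genes whose difference changed sign were not called in the fit reported. Leaving out 1 array moved H2-Aa between -0.032 and 0.036, H2-Ab1 between -0.059 and 0.010, Cd74 between -0.049 and 0.017, Flt3 between -0.387 and 0.092, Kit between -0.078 and 0.415 and Crlf2 between -0.007 and 0.031. Array weights gave 0.020 for H2-Aa and 0.003 for H2-Ab1, quantile normalization -0.007 for H2-Eb1 and -0.044 for Ccl22, and the block 0.001 for Cd74 and -0.003 for Crlf2. The cause of these changes was not tested.

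The treated wild type group had 2 arrays, and each array was a pool, so the spread between mice was not measured. Calls were few among dim genes, whose signal lies near the background of the array. Settings with 1 wild type array assume that this array varies like the other groups.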

Other observations

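Further gene families were counted against the 9.00% of all genes called lower and 10.7% called higher. Of 54 adhesion and guidance genes 13 were higher and 6 lower (median 0.10). The integrin chain Itgb5 read 8.88 and 9.37 with Irf3 and 10.19, 10.33 and 10.30 without it (adjusted p = 0.000246), and the semaphorin receptor gene Plxna1 differed by 0.97. Sema7a, a membrane semaphorin, was lower, at 12.25 and 12.28 with Irf3 against 10.95, 11.17 and 11.38 without it (adjusted p = 4.02e-05), as was the gut-homing integrin chain Itgb7 at -0.67.

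Purinergic receptors and nucleotidases were higher in 8 and lower in 2 of 26 cases (median 0.11). P2rx7, the ATP-gated channel that triggers the NLRP3 inflammasome, read 9.01 and 9.23 with Irf3 and 10.06, 10.000 and 9.85 without it (adjusted p = 0.000257). P2ry14, the receptor for UDP-glucose, was lower at -0.81 (adjusted p = 0.000195). Without the second treated wild type array 1 was lower.

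Rab GTPases and their partners, which direct vesicle traffic, were divided, with 12 of 69 lower (17.4%) and 11 higher (15.9%). Rab31 read 10.16 and 10.14 with Irf3 and 11.24, 11.30 and 11.36 without it (adjusted p = 4.25e-06), Rab7b differed by 0.87, and Rab30 was lower at -1.07 (adjusted p = 1.27e-05). Without the second treated wild type array 7 were lower and 4 higher, and without the first or the third Irf3-deficient array 7 were higher.

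In the Notch and cell cycle lists the shares called, 4 of 20 and 8 of 45, were near or under the 19.7% of all genes. Of 20 Notch pathway genes 3 were higher, the ligand Jag1 at 0.67 (adjusted p = 0.00236), the nuclear partner Rbpj at 0.63 (adjusted p = 0.00018) and the protease Adam17 at 0.31, and the ligand Dll4 was lower at -0.43 (adjusted p = 0.0242), a call that was lost without the first Irf3-deficient array or either treated wild type array. Of 45 cell cycle genes 5 were lower and 3 higher, with 7 higher without the second Irf3-deficient array. The spindle gene Tpx2 read 9.26 and 9.36 with Irf3 and 8.56, 7.81 and 8.15 without it, and the cyclin gene Ccnd1 differed by -0.87, while the replication genes Mcm3 and Mcm5 were higher at 0.63 and 0.53. Of 15 B cell and plasmacytoid markers 3 were lower, among them the B cell gene Ms4a1 at -0.90 and Bst2, and 1, Ccr9, was higher, with 3 higher without the first treated wild type array.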
